A study of Mus musculus with 8 samples.

Results

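The interferon response and MHC class I genes are 34 listed genes that carry out or follow signalling by interferons, or that load peptides onto MHC class I. Each gene's values come from its brightest probe set on average, among those that the platform's annotation assigns to it alone. This gave a value for 31 of the 34 genes, of 18193 genes measured in all. Ifi44 had no such probe set, and the probe sets for Isg15 and Psme2 are each assigned to several genes, so these 3 genes are not analysed here. Mouse cornea RNA was hybridised to 8 arrays, 4 from TGF-beta overexpressing mice (TGFB) and 4 from their wildtype littermates. The TGF-beta isoform, the promoter and tissue that drive it, the strain and the age of the mice are not given in the labels. Nor is it stated that the arrays come from different animals. The p-values therefore rest on a spread between arrays that may be technical.

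Interferons are secreted proteins that warn cells of virus and other danger. Type I interferons act through a receptor and the kinases Jak1 and Tyk2 on a complex that holds Stat2 and Irf9 and binds interferon-stimulated response elements (ISRE), while interferon gamma acts at gamma-activated sites (GAS) and raises Irf1. The genes so induced include antiviral effectors and the machinery of MHC class I, in which an immunoproteasome cuts peptides, the Tap1 and Tap2 transporter brings them into the endoplasmic reticulum, tapasin (Tapbp) loads them, and H2-K and H2-D heavy chains with B2m show them to T cells. The cornea is avascular and known for its immune privilege, and TGF-beta is known as a factor that restrains immune activation. The comparison asks whether these genes differ between corneas with excess TGF-beta and wildtype corneas.

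The promoters of the genes are shown first, since they carry the elements that the pathway is named for. RefSeq start-site windows of 300 bases (GRCm38.p6, 250 bases before the start to 50 after) were found for 29 of the 34 genes, and Mx1, Mx2, Usp18, Ifi27 and Tap2 had none in that table. An ISRE-like match, GAAA followed after any 2 bases by GAAA, on either strand, was present for 13 of these 29 genes, against 3.99% of all 27025 genes with a window. Counted by window, it was present in 13 of 35 windows of these genes and in 3.44% of all windows. A GAS-like match, TTCNNNGAA, was present for 7 of the 29 genes and for 9.55% of all genes, and an X2-like match, TGACGNNA on either strand, for 4 of the 29 and for 7.56% of all genes. In 2 windows of these genes an ISRE-like and a GAS-like match share bases. A match is a description of the letters and not a site shown to be bound, and the lack of a match does not show that no element is present. The stretches below were chosen because their matches lie upstream of the start, in genes of each role, and the capitals mark the ISRE-like matches. The Ifit3 stretch lies at chr19:34583353-34583436, that of Ifit1 at chr19:34640765-34640833, Gbp3 at chr3:142559979-142560034, Gbp2 at chr3:142620584-142620633, B2m at chr2:122147528-122147577 and Stat2 at chr10:128270256-128270305, all on the plus strand.
Ifit3: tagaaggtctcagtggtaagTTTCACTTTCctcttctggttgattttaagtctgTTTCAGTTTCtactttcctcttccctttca
Ifit1: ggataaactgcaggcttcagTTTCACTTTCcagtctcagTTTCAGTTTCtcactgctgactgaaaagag
Gbp3: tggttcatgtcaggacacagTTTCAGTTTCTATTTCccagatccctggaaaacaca
Gbp2: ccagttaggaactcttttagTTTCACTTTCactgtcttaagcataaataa
B2m: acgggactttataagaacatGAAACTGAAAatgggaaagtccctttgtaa
Stat2: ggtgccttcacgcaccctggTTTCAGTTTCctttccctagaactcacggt

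Many of these genes also lie side by side in the genome. Psmb9, Tap1, Psmb8 and Tap2 follow each other in the MHC with no other protein-coding gene between them, and Ifit2 and Ifit3 are direct neighbours. Gbp3 and Gbp2 have 1 protein-coding gene between them, as do Psme1 and Psme2, and Psme2 and Irf9. Tap1 and Psmb9 are read in opposite directions from 1 promoter region, and 275 of the 300 bases of their windows are the same. The X2-like match of both windows is the same element, shown here in capitals on the strand of Tap1, at chr17:34187450-34187497.
Tap1 and Psmb9: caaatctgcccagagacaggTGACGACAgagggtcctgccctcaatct

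Values are linear probe set signals, or log2(signal + 16) where a difference, mean or SD is given. Differences are TGFB minus wildtype. Every array had a 2% trimmed mean signal of 150.0. The median signal was lowest on wildtype 1, at 26.3 against 30.0 to 34.4 elsewhere. That array also had the most probe sets below a signal of 16, at 40.9% against 34.9% to 38.3%. The cornified skin keratin Krt10 had a signal of 8494 to 11198 on TGFB 1, TGFB 2 and wildtype 2 and of 139.8 to 409 on the others. Wildtype 4 had a Gapdh 3'/5' signal ratio of 6.41, against 2.19 (wildtype 1, the lowest) to 4.31 (wildtype 3) elsewhere. The corneal epithelial keratin Krt12 ran from 289 to 5766 and the keratocyte proteoglycan Kera from 2073 to 8110, with Krt12 lowest on TGFB 1 and wildtype 4 (562). Wildtype 1 stood apart most for the genes described here.

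Wildtype 1 held the highest level of 25 of the 31 genes, while 16.2% of all genes had their highest level on that array. The 25 comprise 14 of the 17 antiviral genes, 9 of the 10 antigen presentation genes and the regulators Irf1 and Irf9. The exceptions were Stat2, Irf7 and Tap1, highest on TGFB 2, Rsad2 on TGFB 3, Ifitm3 on TGFB 4 and Mx1 on wildtype 4. The other arrays thus held the highest level of 0 to 3 of the 31 genes. Over all genes the shares were 10.1%, 14.8%, 8.68% and 10.2% for TGFB 1 to 4 and 8.74%, 13.2% and 18.0% for wildtype 2 to 4. The median of the 31 genes' deviations from their own means over 8 arrays was 0.52 on wildtype 1. On the other arrays it lay between -0.24 (wildtype 3) and 0.0049 (wildtype 4), and over all genes it lay between -0.04 and 0.02 on any array. On wildtype 1 the level of 12 of the 31 genes was at least 2 times the median of the other 7 arrays, against 7.95% of all genes. No other array had more than 1 such gene among the 31. After quantile normalization wildtype 1 was highest for 22 of the 31 genes and for 15.9% of all genes. After median centring it was highest for 26 of the 31 and for 21.8% of all genes.

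**Figure D1:**
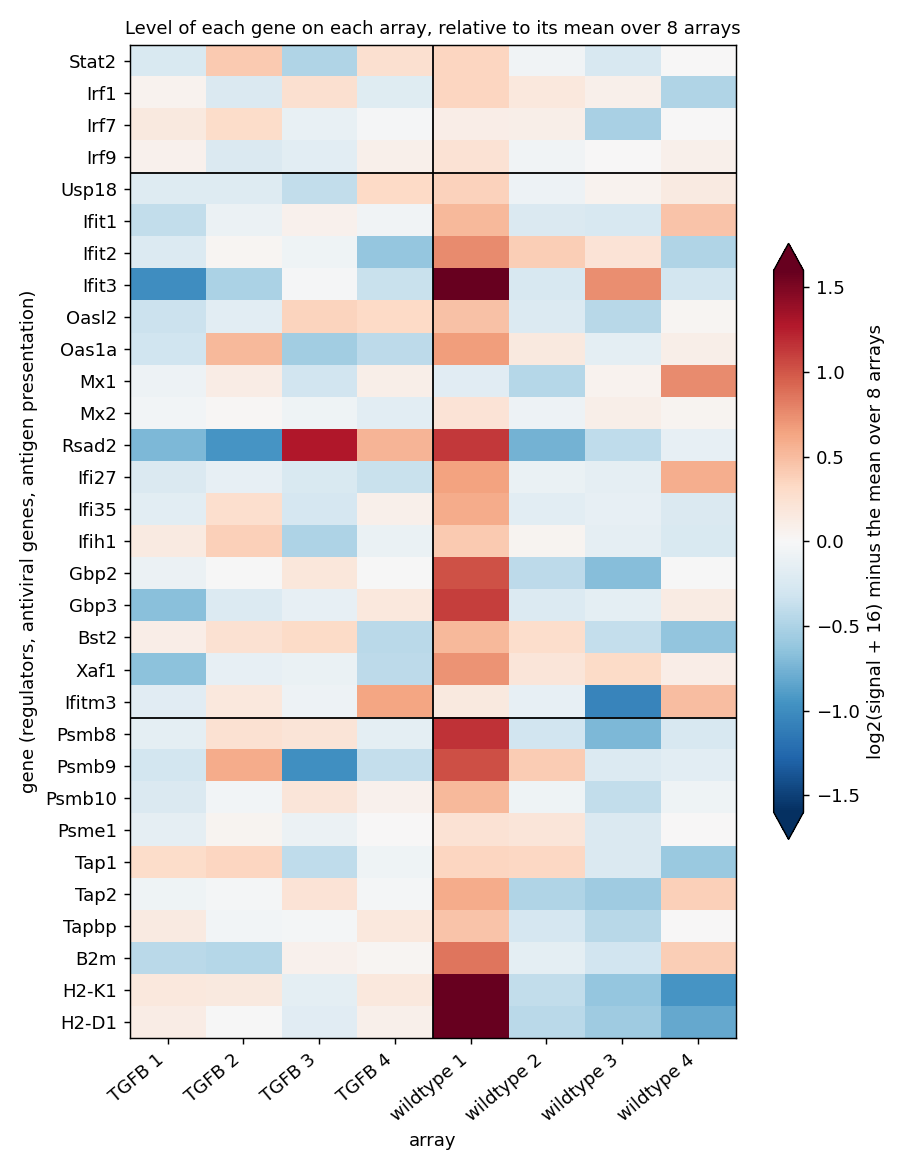
Log2(signal + 16) of the 31 measured genes (vertical axis, grouped as regulators, antiviral genes and antigen presentation genes) on the 8 arrays (horizontal axis), as the difference from each gene's mean over 8 arrays. The column of wildtype 1 is red for nearly the whole list, and 25 of the 31 genes have their highest level there.

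**Figure D2:**
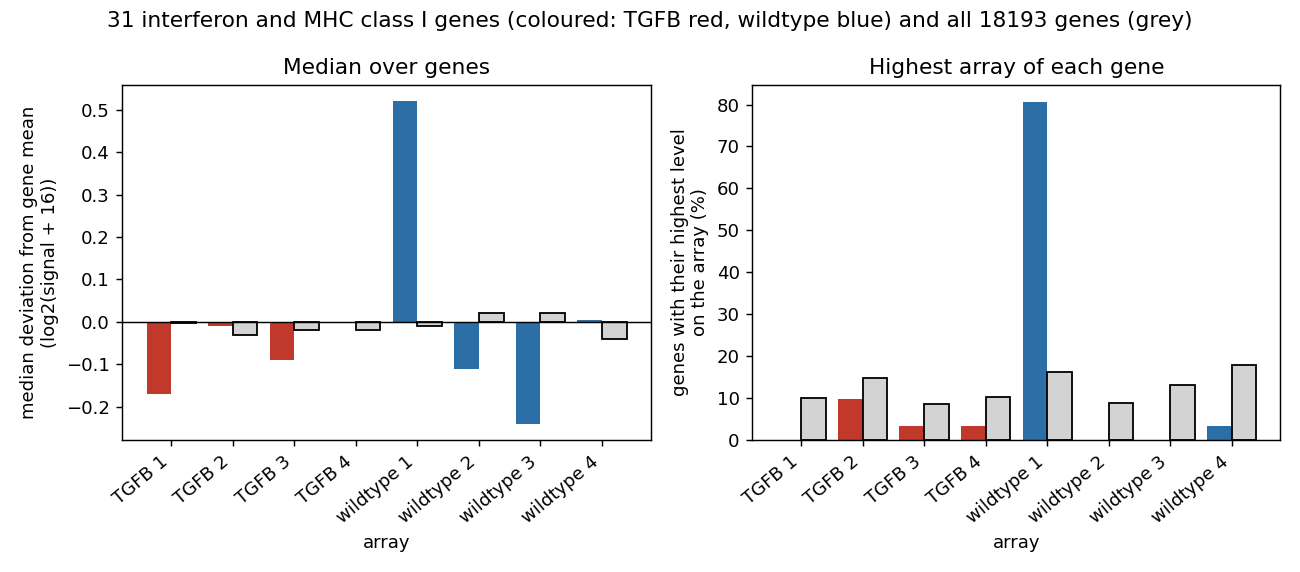
Left, the median deviation from the gene mean on each array (log2(signal + 16)), and right, the share of genes whose highest level is on that array (%), for the 31 genes (coloured, TGFB red and wildtype blue) and all 18193 genes (grey). The 31 genes have a median of 0.52 on wildtype 1, where all genes together are near 0.

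The size of this excess differed from gene to gene. The ratio of wildtype 1 to the median of the other 7 arrays was 4.92 for Ifit3, 4.12 for H2-D1, 3.54 for H2-K1, 3.26 for Psmb9, 3.23 for Rsad2, 3.08 for Gbp3 and 2.84 for Psmb8. It was 2.02 for B2m, 1.55 for Psmb10, 1.42 for Tapbp, 1.17 for Psme1, 1.21 for Irf9 and 1.10 for Irf7. Among the measured genes with a window, 9 of 12 with an ISRE-like match and 12 of 14 without one had their highest level on wildtype 1. Genes without an exact match may still hold a looser form of the element. The pair Psmb9 and Tap1, which share a promoter region, were unlike on wildtype 1. Psmb9 signals were 22.9, 56.2, 8.17 and 20.7 in TGFB corneas and 81.7, 47.3, 25.1 and 26.4 in wildtype corneas, where wildtype 1 was highest. Tap1 signals were 54.5, 57.3, 27.4 and 38.8 against 56.8, 56.4, 33.1 and 22, so wildtype 1 was level with TGFB 2. Both probe sets are dim, and Tap1 has 3 further, dimmer probe sets.

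Markers of several other cells were examined on wildtype 1. The leukocyte marker Ptprc (CD45) was 129 there, within the 55.6 to 165 of the other arrays. The leukocyte markers Coro1a (128, against 61.3 to 176), Cd52 (109, against 38.1 to 319.7) and Lcp1 (223, against 161 to 248) were also within the range of the others. Laptm5 was lowest there, at 32.7 against 113 to 1049, and with it the summed signal of the 5 leukocyte markers was 621, against 682 to 1657 elsewhere. The sum of 10 T and NK cell markers was 93.9, against 91.2 to 166 elsewhere, with Cd3e at 3.05 and between 1.90 and 12.8 on the other arrays. Apart from Cd8a, at 39.0 on wildtype 1 and 41.9 to 76.8 elsewhere, these markers were mostly near background. Their sum therefore says little about such cells. The sum of 7 neutrophil markers was lowest on wildtype 1, at 112 against 183 to 1746, and S100a8 at 28.2 against 50.9 to 785. B cell markers were near background, with a sum over 3 genes of 30.8 against 21 to 47.9. The sum of 13 macrophage and dendritic cell markers was highest there, at 5668. That sum was 5216 on wildtype 4 and 2296 to 3354 on the others, and 5 of the 13 were highest on wildtype 1. By group, the sum was 2296 to 3354 in TGFB corneas and 2651 to 5668 in wildtype corneas. The macrophage receptor Csf1r was 3372 on wildtype 1, 2725 on wildtype 4 and 1111 to 1839 elsewhere. On wildtype 4, with the second highest macrophage sum, the median deviation of the 31 genes was 0.0049. Of the 31, 1 (Mx1) was at its highest there and 5, H2-K1 and H2-D1 among them, were at their lowest. B2m and Ifi27 were among those second highest there. The part of these cells in the levels on wildtype 1 was not tested.

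Wildtype 1 also differed in tissue markers, of which Aldh3a1 and Myh1 were picked after their values were seen. The corneal epithelial crystallin Aldh3a1 was 4060 there and 52.5 to 315 elsewhere. The fast muscle myosin Myh1 was 3936 there and 25.5 to 335 elsewhere, and 4 of 8 skeletal muscle markers were highest on it, with a summed signal of 26808 against 14521 to 23856. Pigment cell markers were highest on it for 7 of 8 genes, with a sum of 33191 against 3179 to 25880. The blood endothelial sum over 7 genes was 1494, against 665 to 1370. Lens markers were highest on wildtype 3, with a sum of 29142 against 10056 on wildtype 1, and the sum of 7 cornified epidermis markers was lowest on wildtype 1, at 694. The part of these tissues in the levels below was not tested. In a bulk sample, more cells of a type and more RNA per cell cannot be told apart.

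Across the groups, none of the 31 genes passed limma's test at an adjusted p under 0.05, where 0% of all genes did. Their smallest adjusted p was 0.640. By unadjusted p under 0.05, limma found 0 genes higher and 2 lower in TGFB corneas, Xaf1 and Ifi27, beside 2.65% of all genes higher and 4.41% lower. The signals of the groups did not overlap for 1 gene, Xaf1, which was lower in TGFB corneas, as were 2.45% of all genes. It was higher without overlap for 0 of the 31 and for 1.48% of all genes. The difference was below 0 for 19 of the 31 genes, against 52.6% of all genes, and above 0 for 12. The median difference of the 31 genes was -0.041, and that of all genes -0.014. By role, 3 of 4 regulators, 12 of 17 antiviral genes and 4 of 10 antigen presentation genes had a difference below 0, with medians of -0.038, -0.137 and 0.021.

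Wildtype 1 was singled out because it was highest for most of these genes. Leaving it out lowers the wildtype mean of each such gene, so a rise in those differences was fixed in advance. The comparison was repeated without wildtype 1 as a description only. Then, 17 of the 31 differences were above 0 and 14 below, where 52.9% of all genes were below, and the median difference was 0.090 (all genes -0.016). At an unadjusted p under 0.05, limma then gave 3 genes higher and 1 lower, beside 1.78% and 3.34% of all genes. The groups did not overlap for 3 genes that were higher in TGFB corneas (H2-K1, H2-D1 and Psmb8, all of antigen presentation) and for Xaf1, which was lower, beside 2.33% and 3.72% of all genes. None passed the adjusted threshold (smallest limma adjusted p = 0.921). Without wildtype 4, whose Gapdh 3'/5' ratio was high, the median difference was -0.122, and 23 of the 31 genes were below 0, beside 52.9% of all genes. Leaving it out gives wildtype 1, highest for most of these genes, more weight in the wildtype mean. It also removes the array that was lowest for 5 of them, H2-K1 and H2-D1 among them. The lower differences of such genes thus follow in part from the array left out, and this repeat is a description only as well. None of the 31 then passed the adjusted threshold, beside 0.011% of all genes. By unadjusted p under 0.05, 0 were higher and 3 lower, beside 4.48% and 8.17% of all genes. The groups did not overlap for 0 genes that were higher and for Xaf1 and Ifit2, which were lower, beside 4.75% and 7.68% of all genes.

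**Figure D3:**
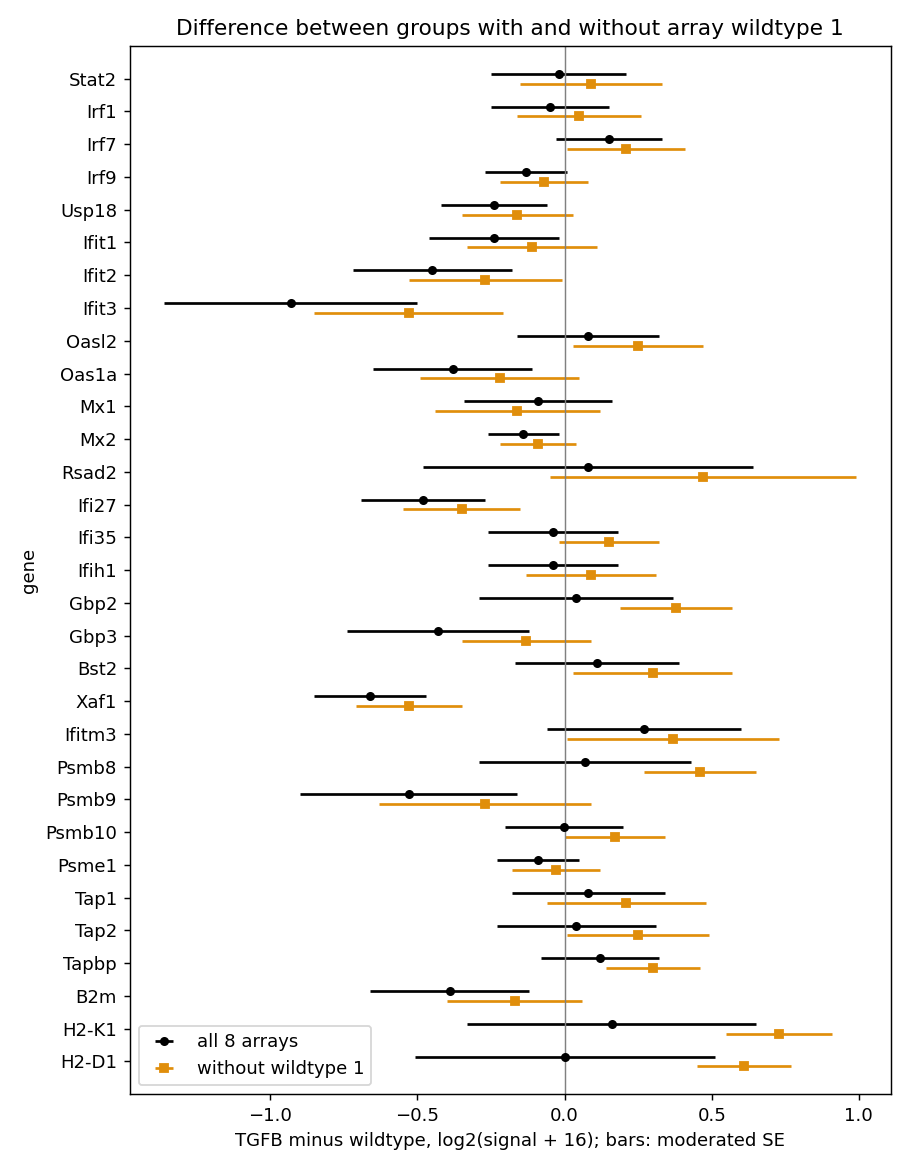
TGFB minus wildtype difference in log2(signal + 16) (horizontal axis, bars are moderated SEs) of each gene (vertical axis) over all 8 arrays (black) and without wildtype 1 (orange). H2-K1, H2-D1 and Psmb8 move from near 0 to 0.73, 0.61 and 0.46, while Xaf1 stays below 0 in both.

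The 4 regulators overlapped between the groups. Irf9, a DNA-binding part of the complex with Stat2, had signals of 80.0, 62.2, 65.8 and 81.2 in TGFB corneas and 91.9, 72.5, 75.9 and 80.8 in wildtype corneas. The groups overlap, and the difference was -0.13 (SE 0.14, limma adjusted p = 0.875). Irf1, the regulator that interferon gamma induces, had signals of 264, 214, 305 and 220 against 325, 288, 268 and 177. Wildtype arrays gave both the highest and the lowest of these, and the difference was -0.05 (SE 0.20, adjusted p = 0.977). Irf7, which amplifies the type I interferon response, had signals of 41.1, 47.1, 31.3 and 34.8 against 39.3, 38.9, 20 and 35.6, with wildtype 3 lowest. Its difference was 0.15 (SE 0.18, adjusted p = 0.888). Stat2 was dim, at 12.6, 29.3, 8.27 and 24.2 against 26.9, 16.5, 12.3 and 18.0 and a difference of -0.02 (SE 0.23, adjusted p = 0.992).

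Among the antiviral genes, Xaf1, an interferon-induced gene linked to cell death, was the only 1 whose groups did not overlap. Its signals were 39.3, 63.7, 64.9 and 49.0 in TGFB corneas and 128, 83.3, 91.4 and 77.9 in wildtype corneas. All 4 wildtype arrays lay above all 4 TGFB arrays, also when wildtype 1 is set aside. Mean values were 6.12 ± 0.26 and 6.77 ± 0.27 (SD, n = 4 each), a difference of -0.66 (SE 0.19, limma adjusted p = 0.640), and -0.53 (SE 0.18) without wildtype 1. A second, dimmer Xaf1 probe set gave 0.17 (SE 0.13), so the probe sets of this gene disagree in sign.

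Ifi27, an interferon-induced protein of mitochondria, had signals of 715, 764, 704 and 651 in TGFB corneas, within a narrow range, and of 1319, 776, 756 and 1259 in wildtype corneas. Wildtype 1 and wildtype 4 were high, and the other pair of wildtype arrays lay near the top of the TGFB range. The difference was -0.48 (SE 0.21, limma adjusted p = 0.704), and a second probe set gave -0.56 (SE 0.26). The chosen Ifi27, Ifi35 and Gbp2 probe sets have the suffix that marks probes shared between transcripts, so their signal may hold more than 1 transcript.

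The Ifit genes encode proteins that bind foreign RNA and block its translation. Ifit3 had signals of 22.7, 38.4, 60.2 and 44.3 in TGFB corneas and 229, 48.2, 113 and 46.6 in wildtype corneas. Wildtype 1 and wildtype 3 were above every TGFB array and the other pair of wildtype arrays was not. The difference was -0.93 (SE 0.43, limma adjusted p = 0.714), and -0.53 (SE 0.32) without wildtype 1. Its neighbour Ifit2 had signals of 105, 128, 119 and 75.8 against 222, 170.4, 149 and 84.9. Here 3 wildtype arrays lay above all TGFB arrays and wildtype 4 lay among them, so without wildtype 4 the groups do not overlap. The difference was -0.45 (SE 0.27, adjusted p = 0.783), or -0.68 (adjusted p = 0.247) without wildtype 4. Ifit1 was dim, between 8.13 and 29.7, with a difference of -0.24 (SE 0.22). All 3 genes had their highest signal on wildtype 1, and their differences kept their sign without it.

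Oas1a, which makes the signal that activates RNase L, had signals of 43.1, 89.6, 34.1 and 39.2 against 101, 65.6, 49.8 and 62.7. TGFB 2 lay above 3 of the wildtype arrays, and the difference was -0.38 (SE 0.27, limma adjusted p = 0.817). Its relative Oasl2, between 22.6 and 56.2, gave 0.08 (SE 0.24). The guanylate-binding proteins Gbp2 and Gbp3, targets of interferon gamma that act against intracellular microbes, were both high on wildtype 1. Gbp2 was 213 there and 54.6 to 112 elsewhere, and its difference was 0.04 (SE 0.33), or 0.38 (SE 0.19) without wildtype 1. Gbp3 was 105 on wildtype 1 and 19.1 to 46.7 elsewhere, with a difference of -0.43 (SE 0.31), or -0.13 (SE 0.22) without it. Neither passed in either setting.

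Rsad2 (viperin), an antiviral enzyme, had the largest SD of the 31 genes among the TGFB arrays. Its signals were 72.4, 59.9, 338 and 197 in TGFB corneas and 303, 70.6, 93.8 and 117 in wildtype corneas, with SDs of 1.05 and 0.82. TGFB 3 and wildtype 1 were the high arrays, and the difference was 0.08 (SE 0.56, limma adjusted p = 0.987). Rsad2, Psmb8, Tap1 and Tap2 were chosen for this closer description after their values were seen.

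The other antiviral genes overlapped between the groups. Ifitm3, which blocks virus entry at membranes, ran from 1078 (wildtype 3) to 3502 (TGFB 4), with a difference of 0.27 (SE 0.33). Ifi35 was 1308 on wildtype 1 and 713 to 1038 elsewhere, with a difference of -0.04 (SE 0.22). The RNA sensor Ifih1 (MDA5) ran from 49.7 to 108 and gave -0.04 (SE 0.22). Usp18, which removes Isg15 from proteins and dampens receptor signalling, ran from 11 to 29.7 and gave -0.24 (SE 0.18). The tether of budding virus Bst2 ran from 4.82 to 30.2 and gave 0.11 (SE 0.28). The GTPases Mx1 and Mx2 ran from 6.99 to 37.4 and from 1.17 to 6.39, with differences of -0.09 (SE 0.25) and -0.14 (SE 0.12). Stat2, Usp18, Ifit1, Mx1, Mx2, Bst2, Psmb9 and Tap2, 8 of the 31 genes, had at least 1 array under a signal of 16. For these the log2(signal + 16) scale understates any change.

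For the antigen presentation genes, the median deviation on wildtype 1 was 0.72, against 0.60 for antiviral genes and 0.29 for regulators. The heavy chain gene H2-K1 had signals of 528, 524, 419.7 and 530.4 in TGFB corneas and of 1485, 353, 299.7 and 237 in wildtype corneas. Wildtype 1 was above every other array, and the other 3 wildtype arrays were below every TGFB array. The difference over 8 arrays was 0.16 (SE 0.49, limma adjusted p = 0.967), with group values of 9.01 ± 0.16 and 8.84 ± 1.16 (SD, n = 4 each). Without wildtype 1 it was 0.73 (SE 0.18, adjusted p = 0.921).

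H2-D1, the second classical heavy chain gene, had the same order of arrays around the groups. Its signals were 573, 524, 462 and 558 in TGFB corneas and 1904, 387, 349 and 293 in wildtype corneas. The difference was 0.0004 (SE 0.51, limma adjusted p = 1.00) over 8 arrays and 0.61 (SE 0.16, adjusted p = 0.925) without wildtype 1. H2-K1 and H2-D1 are close relatives, and their chosen probe sets have the suffix that marks probes shared with other sequences, so how the signal splits between them is uncertain. A second bright H2-D1 probe set gave 471, 449.8, 389 and 442 against 1684, 297, 276 and 254, and a second bright H2-K1 probe set gave 426, 426, 415 and 449.9 against 1272, 410.2, 296 and 308. In both, wildtype 1 was highest and the other wildtype arrays were below every TGFB array. Over 8 arrays the bright H2-K1 probe sets differ in sign, since the second bright one gave -0.12 (SE 0.40). Dimmer probe sets were mixed. For H2-D1, 101, 91, 122 and 121 against 393, 65.8, 69.3 and 54.7 kept the order. Another, without that suffix, had 58.3, 40.5, 46.0 and 48.4 against 169.6, 42.7, 54.7 and 33.9 (-0.3, SE 0.37), and overlapped also without wildtype 1. So did an H2-K1 probe set, with 30.4, 38.1, 34.1 and 29.3 against 88.6, 38.2, 20.6 and 11.8.

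B2m, the light chain that every class I molecule needs, had signals of 1569, 1539, 2215 and 2155 in TGFB corneas and 3824, 1896, 1700 and 2786 in wildtype corneas. It was high on wildtype 1 and wildtype 4, and the others overlapped. The difference was -0.39 (SE 0.27, limma adjusted p = 0.813), and -0.17 (SE 0.23) without wildtype 1, so B2m did not take the positive sign that the heavy chain genes had without that array. A second B2m probe set gave -0.36 (SE 0.27).

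**Figure D4:**
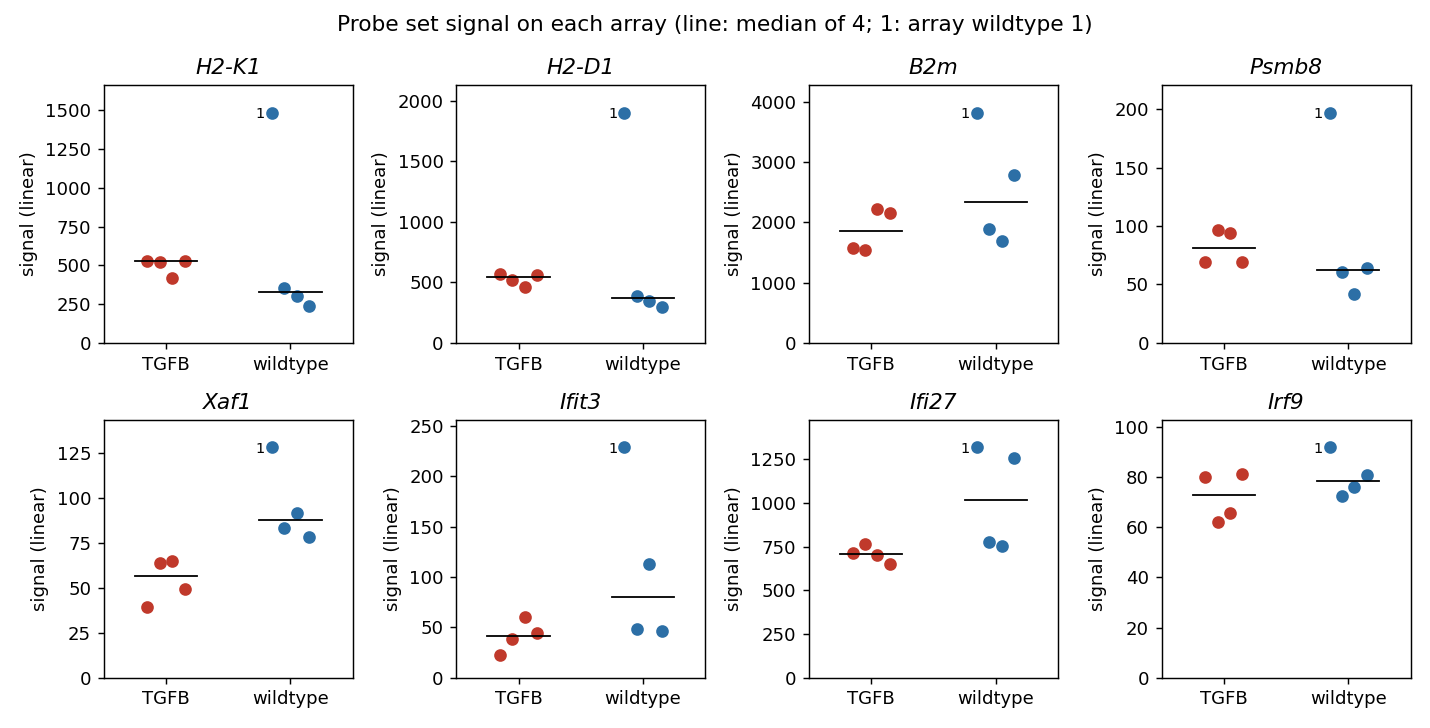
Linear probe set signals of 8 genes on the 4 TGFB (red) and 4 wildtype (blue) arrays, with a line at each group's median and wildtype 1 marked 1. For H2-K1 and H2-D1 the other 3 wildtype arrays lie below all TGFB arrays, and for Xaf1 all 4 wildtype arrays lie above them.

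The immunoproteasome subunits replace the standard catalytic subunits and favour peptides that fit class I. Psmb8 had signals of 69.4, 96.8, 93.6 and 69.2 in TGFB corneas and 197, 60.7, 41.7 and 63.8 in wildtype corneas. As for H2-K1, wildtype 1 was highest and the other wildtype arrays were below every TGFB array. Its difference was 0.07 (SE 0.36, limma adjusted p = 0.985), or 0.46 (SE 0.19, adjusted p = 0.951) without wildtype 1. A second Psmb8 probe set, near the floor, had 3.77, 7.96, 5.58 and 4.45 against 19.3, 2.2, 23.9 and 9.69. It did not keep that order and gave -0.41 (SE 0.24), so the probe sets of this gene disagree in sign. Psmb9, whose signals are given above with Tap1, overlapped between the groups and gave -0.53 (SE 0.37, adjusted p = 0.818). Psmb10 ran from 150.2 to 297 and gave -0.0011 (SE 0.20).

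The proteasome activator Psme1 varied little, at 509, 579, 526 and 566 in TGFB corneas against 660.3, 645, 475 and 564, with a difference of -0.09 (SE 0.14, limma adjusted p = 0.925). Tapasin (Tapbp) had signals of 427, 375, 379 and 437 against 538, 318, 279.7 and 387, with wildtype 1 highest and wildtype 3 lowest, and a difference of 0.12 (SE 0.20, adjusted p = 0.931). For the peptide transporter, Tap1 gave 0.08 (SE 0.26). Tap2, at 26.8, 28.0, 36.4 and 27.8 against 51.8, 16.2, 14.2 and 42.4, gave 0.04 (SE 0.27). Its wildtype arrays lay on both sides of the TGFB arrays. The TGFB arrays were close together for several of these genes, with SDs of 0.08 for Psme1, 0.11 for Tapbp, 0.13 for Tap2, 0.14 for H2-D1 and 0.16 for H2-K1, against 0.21, 0.40, 0.59, 1.22 and 1.16 in wildtype arrays.

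Other genes of the pathway were taken from lists drawn up with earlier results of these data known, and 94 of the 110 listed genes were measured. None passed at an adjusted p under 0.05. At an unadjusted p under 0.05, limma gave 2 of 94 higher and 7 lower, beside 2.65% and 4.41% of all genes. The median difference was -0.098 (all genes -0.014), with 63 of 94 below 0, beside 52.6% of all genes. Without wildtype 1 it was -0.024 (all genes -0.016), with 54 of 94 below 0, beside 52.9% of all genes. Wildtype 1 held the highest level of 30 of the 94 genes and of 16.2% of all genes.

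Other interferon-stimulated genes leaned most to one side, with 34 of 39 differences below 0 and a median of -0.195, or 28 of 39 and a median of -0.081 without wildtype 1. The shares of all genes below 0 were 52.6% and 52.9%. At an unadjusted p under 0.05, 6 of the 39 were lower in TGFB corneas and 0 higher, beside 4.41% and 2.65% of all genes. Tissue marker lists also leaned to one side, though the summed signal of each list overlapped between the groups. All 8 pigment markers had a difference below 0 (mean over the list -1.91), as did all 8 skeletal muscle markers (-0.65), all 8 lens markers (-1.05) and 9 of 11 cornea markers (-0.63), while all 7 cornified epidermis markers were above 0 (1.63). The summed pigment signal was 3179 to 14777 in TGFB and 14489 to 33191 in wildtype corneas. For lens the sum was 68.8 to 21142 against 169 to 29142, and for skeletal muscle 14521 to 23570 against 19273 to 26808, highest on wildtype 1. The cornified epidermis sum was high only on TGFB 1, TGFB 2 and wildtype 2, at 27874 to 47967 against 694 to 1485 elsewhere. The part of these tissues in the lower levels of interferon-stimulated genes was not tested. The chemokine Cxcl10, a classical interferon gamma target, had signals of 11.1, 14.6, 11.5 and 1.94 in TGFB corneas and 23.1, 19.4, 21.9 and 20.2 in wildtype corneas. All wildtype arrays lay above all TGFB arrays, at dim signals, and the difference was -0.55 (SE 0.18, limma adjusted p = 0.662). Rtp4 had 63.0, 87.3, 47.7 and 101 against 167, 95.6, 105 and 229 (-0.83, SE 0.29, adjusted p = 0.671). The groups overlap there only because TGFB 4 lies above wildtype 2. Ifi27l2a, a relative of Ifi27, gave -0.75 (SE 0.28), and Ifitm1, a relative of Ifitm3, gave -0.94 (SE 0.39), with adjusted p of 0.677 and 0.691. Wildtype 1 was highest for 13 of these 39 genes and for 16.2% of all genes. Samhd1, named after its values were seen, had the largest difference of the 39, at -2.11 (SE 1.32, limma adjusted p = 0.793). It was lowest on wildtype 1, at 44.8 against 122 to 4742 elsewhere.

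The ligands themselves were at low signals; Ifnb1, Ifng and Ifnar1 are named here by their role, with their values known. Ifnb1 ran below a signal of 18 on all arrays and Ifng below 7. Ifna1 was 15.7, 15.2, 11.5 and 2.80 in TGFB corneas and 0.707, 3.02, 6.03 and 2.41 in wildtype corneas, a difference of 0.50 (SE 0.19, limma adjusted p = 0.681) at the floor of the arrays. The receptor chain Ifnar1 ran from 161 to 245, with wildtype 1 highest, and gave -0.14 (SE 0.15). The shared receptor chain Il10rb gave -0.41 (SE 0.27), the STAT inhibitor Pias1 -0.18 (SE 0.13) and the feedback inhibitor Socs3 0.65 (SE 0.50). Socs3 was high on TGFB 4 (1008), TGFB 3 (699.5) and wildtype 4 (664), and lowest on wildtype 1 (167).

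Sensors of nucleic acids were split, with 9 of 18 differences above 0 and 9 below. The adaptor Ticam1 had 40, 34.3, 19.6 and 32.8 in TGFB corneas and 15.8, 20.4, 19.7 and 15 in wildtype corneas, a difference of 0.48 (SE 0.17, limma adjusted p = 0.671), with only TGFB 3 inside the wildtype range. Irf5 gave 0.36 (SE 0.18), the RNA receptor Tlr3 -0.49 (SE 0.25) and the RNA helicase Ddx58 (RIG-I) -0.27 (SE 0.17). Among other antigen presentation genes, 11 of 18 differences were below 0, beside 52.6% of all genes, with a median of -0.059. The antibody receptor Fcgrt had 565, 519, 399.9 and 381 against 1072, 524, 613 and 709.9, with wildtype 1 highest, and gave -0.60 (SE 0.24, adjusted p = 0.681). Nlrc5, the transactivator of class I genes, was dim and gave 0.28 (SE 0.15). The nonclassical H2-T24 was listed under a signal of 10 on every array and gave 0.19 (SE 0.16), and the chaperone Canx gave -0.19 (SE 0.19).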

How the data were processed

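RNA of mouse corneas (4 TGFB and 4 wildtype arrays) was measured on 1-colour arrays of 45101 probe sets. The deposited table holds linear intensities, and how the authors summarised and scaled them is not given in the sources used here. Replicates were numbered in record order and pair no arrays. A 2016 platform annotation gave 1 symbol to 34958 probe sets and several to 932; 34741 were matched by Entrez ID to RefSeq (GRCm38.p6). The brightest probe set by mean stood for each of 18193 genes. Signals were taken as log2(signal + 16) and the groups tested by lmFit and eBayes of limma 3.58.1 (R 4.3.3), with Benjamini-Hochberg adjustment over all genes. The members, lists and tests were chosen with earlier results of these data known. All 34 listed genes are named; array values are given for the regulators, B2m, H2-K1, H2-D1 and the 5 smallest p in each other class, and up to 4 genes of smallest p are named per pathway list. The fit was first tested on simulated data. The offset (1 or 32), the scaling (quantile or median), dim genes (only those above percentile 40), probe sets (mean of all), a variance trend, array weights and each array's removal were varied in turn. Leaving out the 3 arrays high in Krt10 was added after seeing the data.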

Additional observations from a re-analysis of the deposited data

Results flagged for a closer look

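Within the groups of 4, the gap of 1 array to the nearest other took up most of the group's range for 5 of 62 gene and group pairs, a share of 8.06%, beside 6.67% over all genes; chance flags about 1 in 20 groups. H2-D1 on wildtype 1 had a signal of 1904 against 293 to 387 in the other wildtype arrays, a gap of 0.854 of the range on the log2 scale. Ifi35 on wildtype 1 had 1308 against 733 to 786 (0.880). Irf7 on wildtype 3 had 20 against 35.6 to 39.3 (0.838). Among TGFB arrays, H2-K1 on TGFB 3 had 419.7 against 524 to 530.4 (0.946), and Tap2 on TGFB 3 had 36.4 against 26.8 to 28.0 (0.859).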

How the results depend on the processing

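None of the 31 genes passed in any of the 17 alternatives; their smallest limma adjusted p was 0.22 (Xaf1, without wildtype 4). Over all genes, leaving out 1 array gave 0 to 2 calls. The median difference of the 31 genes ran from -0.146 (without the 3 arrays high in Krt10) to 0.09 (without wildtype 1), and was -0.141 at its lowest when 1 array was left out. No paired analysis was possible because the labels give the arrays no replicate numbers that the groups share. Xaf1, Ifi27, Ifit1, Ifit2, Ifit3, Oas1a, Gbp3, Mx2, Usp18, B2m, Psmb9, Psme1, Irf7 and Irf9 kept their sign in every alternative that gave a value. The other 17 genes, all with small differences, changed sign in at least 1; the cause was not tested. Psmb10 gave 0.001 with offset 1, 0.01 with quantile normalization and 0.07 with array weights. H2-D1 gave -0.01 with offset 32 and -0.01 with median centring, and Stat2 gave 0.01 with quantile normalization. The mean of all probe sets gave -0.04 for Rsad2, -0.05 for Gbp2 and -0.17 for Psmb8. Array weights gave 0.06 for Mx1, -0.0012 for Bst2 and -0.09 for Tap1. Without the 3 arrays high in Krt10, an alternative chosen after seeing the data, differences were 0.05 for Irf1, -0.02 for Gbp2, -0.04 for Psmb8, 0.11 for Psmb10, -0.08 for Tap1, -0.04 for Tap2, -0.02 for H2-K1 and -0.2 for H2-D1. Leaving out 1 array in turn gave -0.17 to 0.13 for Stat2, -0.22 to 0.05 for Irf1, -0.05 to 0.25 for Oasl2, -0.25 to 0.15 for Mx1, -0.33 to 0.47 for Rsad2, -0.14 to 0.15 for Ifi35, -0.17 to 0.12 for Ifih1, -0.18 to 0.38 for Gbp2, -0.08 to 0.3 for Bst2, -0.04 to 0.48 for Ifitm3, -0.16 to 0.46 for Psmb8, -0.13 to 0.17 for Psmb10, -0.11 to 0.23 for Tap1, -0.14 to 0.25 for Tap2, -0.0046 to 0.3 for Tapbp, -0.12 to 0.73 for H2-K1 and -0.27 to 0.61 for H2-D1. Of the 31 genes, 10 were under a signal of 64 on all arrays, and signals near 16 give little precision. These dim genes include some that kept their sign, such as Mx2 and Ifit1, and some that did not, such as Stat2 and Bst2. Bright genes such as Ifitm3, H2-K1 and H2-D1 also changed sign.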
